A study of Mus musculus with 15 samples.

Results

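The 6 genes described here, Ccr1, Ccr2, Ccr7, Ccrl2, Cxcr4 and Cx3cr1, encode chemokine receptors and one close relative that are known from dendritic cells (DCs). They were taken by gene symbol from the array annotation, 1 probe set per gene, and are 6 of the 19937 genes tested. RNA came from D1 cells, a long-term line grown from the spleen of C57BL/6 mice that stands for splenic DCs and is 1 line. In 2 groups, the cells were given curdlan together with FK506 for 2 h or 4 h. In 2 other groups, they were given curdlan alone for 2 h or 4 h, and the last group was nontreated. Every group had 3 arrays, 15 in all, and curdlan was used at 10 µg/ml. Curdlan is a β-glucan particle that engages the receptor dectin-1, and FK506 blocks calcineurin, the phosphatase that sends the transcription factor NFAT to the nucleus. Cells given FK506 without curdlan are not analysed here, so each FK506 comparison reads FK506 in the presence of curdlan. Both times share the same 3 nontreated arrays, so the comparisons against nontreated cells are not independent of each other. The labels name no nontreated cells of 2 h or 4 h. Against nontreated cells, an effect of curdlan and one of time in culture therefore cannot be told apart.

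Chemokine receptors are multi-span membrane proteins that couple to inhibitory G proteins and steer a cell up a gradient of chemokine. Immature DCs carry receptors for inflammatory chemokines, among them CCR1 and CCR2, which bring them to inflamed tissue. During maturation they take up CCR7, the receptor for CCL19 and CCL21, which leads them to the lymph node. CXCR4 answers to CXCL12, and CX3CR1 to the membrane-bound chemokine CX3CL1. CCRL2 is an atypical member of the family, which binds the chemoattractant chemerin and presents it to other cells without a migration signal of its own.

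Levels are log2 intensities after robust multi-array averaging (RMA), and each probe set has its own binding strength, so levels are compared within a gene and not between genes. To find the array floor, 1027 olfactory receptor genes, most of which are taken to be silent outside the nose, served as a reference. The 95th percentile of their means was 5.87 and the highest was 8.91. A gene with a group mean at or under 5.87 is called near the floor. A gene is called higher or lower where its adjusted p was under 0.05 and its fold change at least 1.5. Where a fold is given against the floor line, the adjusted p and the call are those of the full difference of means. The arrays that differed most from their own groups were curdlan 2 h replicate 3, with a quality weight of 0.119, and nontreated replicate 1, with 0.0781, while the other 13 had weights of 0.707 to 6.87. The replicates are labelled biological, but separate culture days are not given in the sources used here, and p-values therefore measure the spread between these arrays. In bulk RNA, fewer cells that express a gene and less RNA per cell cannot be told apart.

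The labelled cell type was checked against markers. The DC markers Itgax (CD11c, group means of 12.1 to 12.3) and Zbtb46 (8.83 to 9.17) were well above the floor, as were Csf1r (11.51 to 11.99) and Adgre1 (11.7 in each group), which macrophages also carry. Flt3, the growth factor receptor of splenic DCs, lay at the floor line (5.69 to 5.93). Of 10 conventional DC markers, 1 was near the floor in all groups and 8 were above it in all groups. Of 8 macrophage and monocyte markers, these numbers were 1 and 6. Cd3d (T cells, group means of 4.73 to 4.90) and Cd79a (B cells, 3.95 to 4.26) were near the floor in every group. So were Ncr1 (NK cells, 4.67 to 4.92) and S100a8 (neutrophils, 4.40 to 4.71). The rest of these lists was mixed. Near the floor in all groups were 4 of 7 T cell, 2 of 5 B cell, 5 of 7 NK cell and 5 of 8 neutrophil markers, and above it in all groups were 3, 2, 2 and 2. Well above it were Cd5 of the T cell list (8.71 to 9.67) and Klrk1 of the NK cell list (8.34 to 9.29), while no neutrophil marker had a group mean above 6.28 (Mpo). Of 6 plasmacytoid DC markers, 2 were near the floor in all groups and 3 above it, and of 9 fibroblast markers, 4 and 4. Bst2 of the former reached a group mean of 9.40 and Col1a1 of the latter 7.44. Of 8 mast cell and basophil markers, 7 were near the floor in all groups.

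**Figure D1:**
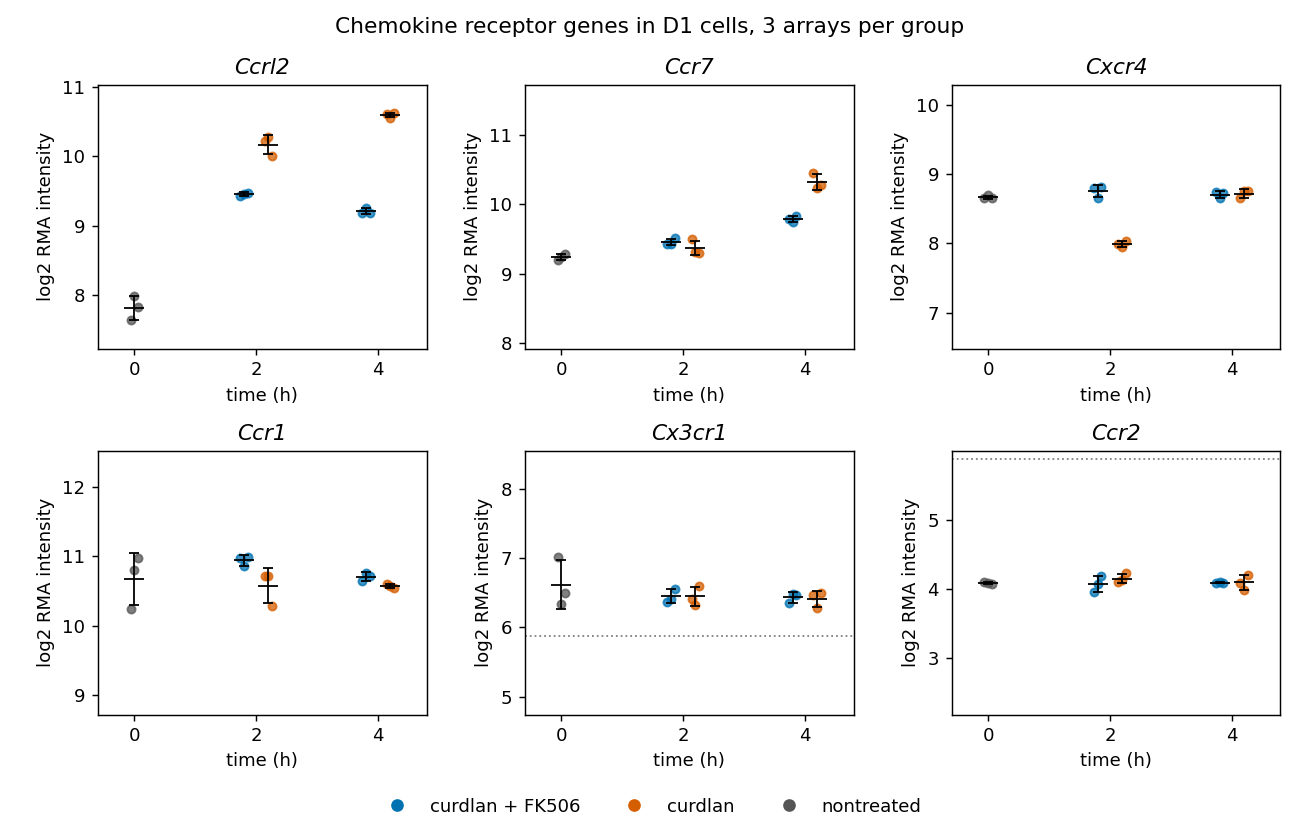
Log2 RMA intensity of the 6 receptor genes against time in hours, with a point per array, a horizontal bar for the mean and whiskers for the SD of 3 arrays (blue for curdlan + FK506, orange for curdlan, grey for nontreated at 0 h), and a dotted line at the floor level of 5.87 where it falls in the panel. Ccrl2 and Ccr7 are highest in the curdlan 4 h arrays, Cxcr4 is lowest in the curdlan 2 h arrays, and all Ccr2 arrays lie under the dotted line.

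Of the 6 receptor genes, 5 were above the floor in all 5 groups, and Ccr2 was near it in all 5. Curdlan at 2 h changed 2 of them against nontreated cells (Ccrl2 higher, Cxcr4 lower), where 3.6% of all genes were called. Curdlan at 4 h changed 2 (Ccrl2 and Ccr7, both higher), against 9.2% of all genes. FK506 changed 2 at 2 h (Ccrl2 lower, Cxcr4 higher than with curdlan alone), against 1.12% of all genes, and 1 at 4 h (Ccrl2, lower), against 1.75%. With curdlan + FK506, 1 of the 6, again Ccrl2, was higher than in nontreated cells at 2 h, where 2.35% of all genes were called, and the same gene at 4 h, where 5.38% were. Between the times, 2 of the 6 were higher at curdlan 4 h than at curdlan 2 h (Ccr7 and Cxcr4, background 4.09%) and 0 passed between curdlan + FK506 at 4 h and at 2 h (background 1.69%), where 2 had an unadjusted p under 0.05 by limma. The FK506 effect itself differed between 4 h and 2 h for 3 of the 6 (Ccrl2, Ccr7 and Cxcr4), against 1.23% of all genes.

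**Figure D2:**
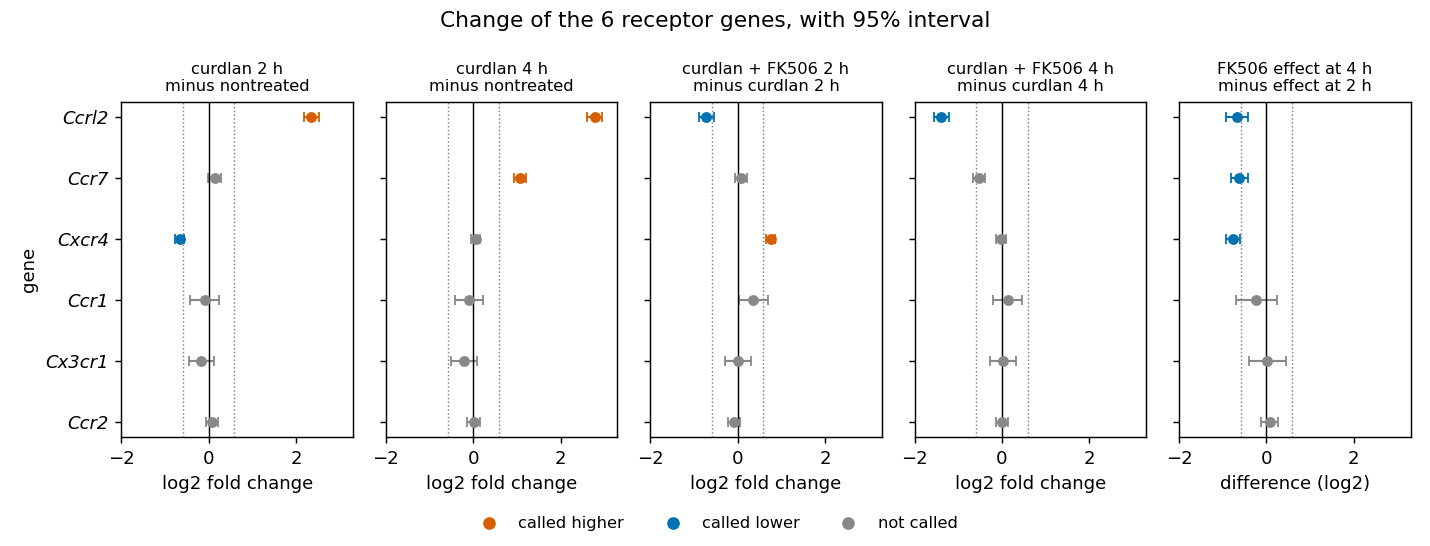
Log2 fold change of the 6 receptor genes in 5 comparisons, with points for the limma estimate and whiskers for the 95% confidence interval (orange for called higher, blue for called lower, grey for not called), a solid line at 0 and dotted lines at 1.5-fold. Ccrl2 is far to the right of the dotted line against nontreated cells and left of it with FK506, and in the last panel, the difference between the FK506 effects at 4 h and 2 h, 3 of the 6 genes lie left of the dotted line.

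Ccrl2, the chemerin-presenting receptor, had the largest changes of the 6 against nontreated cells. With curdlan + FK506 its level was 9.42, 9.46 and 9.47 at 2 h and 9.19, 9.25 and 9.18 at 4 h. Curdlan alone gave 10.21, 10.27 and 10.01 at 2 h and 10.61, 10.55 and 10.62 at 4 h. In nontreated cells it was 7.63, 7.98 and 7.83. Every curdlan array was above every curdlan + FK506 array, and every one of those was above every nontreated array. Curdlan raised Ccrl2 5.09-fold at 2 h (log2 fold change of 2.35 ± 0.08 (SE), adjusted p = 9.15e-11) and 6.86-fold at 4 h (2.78 ± 0.08, adjusted p = 8.72e-12). These were the 54th and 56th highest fold changes among the 19937 genes. FK506 lowered it 1.64-fold at 2 h (−0.71 ± 0.08, adjusted p = 5.68e-05) and 2.62-fold at 4 h (−1.39 ± 0.08, adjusted p = 7.58e-08), and the effect at 4 h differed from that at 2 h by −0.67 ± 0.11 on the log2 scale (adjusted p = 0.00357). The rise was not abolished, since Ccrl2 stayed 3.11-fold above nontreated cells with curdlan + FK506 at 2 h and 2.62-fold above them at 4 h (adjusted p = 7.06e-09 and 1.72e-08). In order, the group means were 10.59 (curdlan 4 h), 10.16 (curdlan 2 h), 9.45 (curdlan + FK506 2 h), 9.21 (curdlan + FK506 4 h) and 7.82 (nontreated). The step between curdlan 4 h and curdlan 2 h, 0.43, passed the adjusted p (0.00121) but not the fold threshold, and the step of 0.25 between the FK506 groups did not pass (adjusted p = 0.0642). Without both arrays that stood apart, the rise at 2 h was 2.34 and the FK506 difference at 2 h was −0.79, and both calls held.

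Because FK506 acts on NFAT, the 250 bases before a RefSeq transcription start are shown for Ccrl2 and for Cxcr4, the receptor genes that FK506 changed at 2 h in opposite directions (GRCm38.p6). The Ccrl2 window is chr9:111057519-111057768 on the minus strand, before the most upstream of 3 listed starts, and the Cxcr4 window is chr1:128592300-128592549, also on the minus strand. Capitals mark the NFAT core GGAAA, read on either strand.
Ccrl2: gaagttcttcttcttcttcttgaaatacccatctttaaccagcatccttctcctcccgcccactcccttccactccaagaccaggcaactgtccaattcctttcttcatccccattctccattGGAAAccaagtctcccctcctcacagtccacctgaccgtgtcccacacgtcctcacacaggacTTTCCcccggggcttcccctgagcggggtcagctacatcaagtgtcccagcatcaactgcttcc
Cxcr4: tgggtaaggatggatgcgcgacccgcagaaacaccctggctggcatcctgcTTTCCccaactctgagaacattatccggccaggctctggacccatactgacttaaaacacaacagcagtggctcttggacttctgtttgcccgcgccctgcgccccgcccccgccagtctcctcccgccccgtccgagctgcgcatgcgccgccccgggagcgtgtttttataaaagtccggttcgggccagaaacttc
The Ccrl2 window holds the core 127 bases before the start as GGAAA and 64 bases before it as TTTCC. The one at 64 bases lies inside an NF-κB site (GGG and CC separated by any 5 bases) on the other strand, 68 bases before the start, and 2 further matches to that site overlap each other at 56 and 55 bases. The Cxcr4 window has 1 core, 199 bases before the start, and no match to the NF-κB site. Neither window has the AP-1 site TGANTCA. Both strands were searched, and of 32851 mouse promoter windows of this length 55.6% hold GGAAA, 45.8% hold that NF-κB site and 6.75% hold TGANTCA, so a match to either of the first 2 is common and is given only as a description. Promoter entries were found for 5 of the 6 genes, all but Ccr7. The windows of the other Ccrl2 starts hold 1 core each and no match to the NF-κB site. The core also occurs in the windows of Ccr1 (1), Ccr2 (3) and Cx3cr1 (1). The NF-κB site matches in those of Ccr1 (1) and Cx3cr1 (1) but not in that of Ccr2. Ccr1 and Cx3cr1 were not called in any comparison, and Ccr2 was near the floor, where a change could not be seen. Whether any of these matches plays a part was not tested.

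Ccr7, the lymph node homing receptor, rose late. Its level with curdlan + FK506 was 9.43, 9.43 and 9.51 at 2 h and 9.79, 9.74 and 9.83 at 4 h. Curdlan alone left it at 9.49, 9.31 and 9.30 at 2 h and 10.45, 10.24 and 10.27 at 4 h, and in nontreated cells it was 9.19, 9.25 and 9.28. The 3 curdlan 4 h arrays were above all other arrays, and the curdlan + FK506 4 h arrays came next, above all arrays of the other 3 groups. Against nontreated cells, curdlan gave a log2 fold change of 0.13 ± 0.06 at 2 h (adjusted p = 0.211, 95% interval −0.01 to 0.27) and of 1.08 ± 0.06 at 4 h (2.11-fold, adjusted p = 1.15e-08). Ccr7 was 1.93-fold higher at curdlan 4 h than at curdlan 2 h (0.95 ± 0.06, adjusted p = 1.3e-07). With FK506 the difference was 0.09 ± 0.06 at 2 h (adjusted p = 0.454) and −0.53 ± 0.06 at 4 h (adjusted p = 7.11e-05), which is 1.45-fold and under the fold threshold. The 2 FK506 effects differed by −0.62 ± 0.09 (adjusted p = 0.00129). This call rests on the fold threshold, since without curdlan 4 h replicate 1, the highest of its group, the difference was −0.56. At 4 h with curdlan + FK506 the gene stood 0.55 ± 0.06 above nontreated cells (adjusted p = 1.64e-05), also under the fold threshold. In the order of group means, curdlan 4 h (10.32), curdlan + FK506 4 h (9.79), curdlan + FK506 2 h (9.46), curdlan 2 h (9.37) and nontreated (9.24), the first 2 steps passed the adjusted p (7.11e-05 and 0.00279) but not the fold threshold, and the last 2 passed neither.

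Cxcr4, the CXCL12 receptor, dipped at 2 h with curdlan alone. It measured 8.79, 8.65 and 8.81 with curdlan + FK506 at 2 h and 8.74, 8.65 and 8.72 at 4 h. In curdlan cells it measured 7.99, 7.95 and 8.04 at 2 h and 8.65, 8.75 and 8.75 at 4 h, against 8.65, 8.69 and 8.65 in nontreated cells. The 3 curdlan 2 h arrays were below the other 12, which lay within 8.65 to 8.81. Curdlan lowered Cxcr4 1.59-fold at 2 h (−0.67 ± 0.05, adjusted p = 4.3e-07), and at 4 h the log2 fold change was 0.06 ± 0.05 (adjusted p = 0.387, 95% interval −0.06 to 0.17). FK506 raised it 1.69-fold over curdlan alone at 2 h (0.76 ± 0.05, adjusted p = 4.64e-07), the 34th highest of all genes in a comparison where 0.361% of genes were called higher and 0.762% lower. At 4 h the FK506 difference was −0.02 ± 0.05 (adjusted p = 0.928, 95% interval −0.13 to 0.10). The FK506 effects at 4 h and 2 h differed by −0.77 ± 0.07 (adjusted p = 3.83e-05). Curdlan 4 h exceeded curdlan 2 h 1.65-fold (adjusted p = 2.05e-07), while the other 4 group means, 8.75 (curdlan + FK506 2 h), 8.72 (curdlan 4 h), 8.70 (curdlan + FK506 4 h) and 8.66 (nontreated), did not differ beyond their spread in the comparisons run. With both outlying arrays left out the dip was −0.70 and the FK506 difference at 2 h was 0.78. Cxcr4 had exactly the same value on 5 arrays, a tie found in 3.44% of all genes.

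Ccr1, a receptor for the inflammatory chemokines CCL3, CCL5, CCL6 and CCL9, was far above the floor and did not pass the test in any of the 9 comparisons. Its values were 10.98, 10.85 and 10.99 with curdlan + FK506 at 2 h and 10.64, 10.76 and 10.72 at 4 h. In curdlan cells they were 10.72, 10.72 and 10.29 at 2 h and 10.61, 10.56 and 10.55 at 4 h, against 10.24, 10.80 and 10.97 in nontreated cells. The 2 low values, 10.29 and 10.24, belong to the arrays that stood apart. The largest difference lay between curdlan + FK506 2 h and curdlan 2 h (0.36 ± 0.15, adjusted p = 0.204, 95% interval 0.04 to 0.69). Without those arrays it was 0.22 (adjusted p = 0.0272), and curdlan 4 h against nontreated cells moved to −0.31 (adjusted p = 0.000718) compared with −0.10 over all arrays, both still under 1.5-fold.

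Cx3cr1, the CX3CL1 receptor of monocytes and some DCs, lay a little above the floor line. It read 6.37, 6.41 and 6.56 with curdlan + FK506 at 2 h and 6.35, 6.49 and 6.47 at 4 h. Curdlan cells had 6.41, 6.33 and 6.60 at 2 h and 6.46, 6.28 and 6.49 at 4 h, against 7.01, 6.34 and 6.49 in nontreated cells. The groups overlapped, and the highest value was on nontreated replicate 1, which stood apart. Of the olfactory receptor genes, 22 had a mean above that of Cx3cr1. No comparison passed, and its log2 fold changes against nontreated cells had intervals of −0.46 to 0.13 for curdlan at 2 h and −0.50 to 0.09 at 4 h.

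Ccr2, which brings monocytes and immature DCs to CCL2, was at the floor, with all 15 values between 3.95 and 4.22. Of the olfactory receptor genes, 512 had a higher mean. A change of Ccr2 could not be seen at this level, and its small differences (0.06 for curdlan at 2 h, 0.01 at 4 h, against nontreated cells) are no sign that the gene responded or did not.

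The 3 responding genes differed in shape over the 15 arrays. Pearson's r was 0.644 between Ccr7 and Ccrl2, 0.357 between Ccr7 and Cxcr4 and −0.308 between Ccrl2 and Cxcr4, as a description over arrays that share their groups and controls. Among all other genes, Ccrl2 was most like Grhl1 (r = 0.993, a grainyhead-like transcription factor), Gch1 (0.992, the entry enzyme of tetrahydrobiopterin synthesis) and Tgif1 (0.986, a homeobox repressor). Ccr7 was most like Il12rb2 (0.979, a chain of the IL-12 receptor), Pwp2 (0.979, a ribosome assembly factor) and Traf5 (0.977, an adaptor of TNF receptors). Cxcr4 was most like Snx20 (0.938, a sorting nexin), Tle3 (0.924, a corepressor) and Mpzl3 (0.908). Snx20 had group means of 10.65 and 10.82 with curdlan + FK506 at 2 h and 4 h, 10.13 and 10.64 with curdlan, and 10.67 in nontreated cells. It was lowest at curdlan 2 h, which follows from its choice by likeness to Cxcr4 over these same arrays.

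The other receptors of the family give the setting. Of 14 other chemokine receptor genes, 13 were measured, and 8 of these were near the floor in all 5 groups. Cxcr3 was the only one above it throughout. None was called with curdlan at 2 h or with FK506 at 2 h or 4 h, where 3.6%, 1.12% and 1.75% of all genes were. In these comparisons 2, 3 and 4 of the 13 had an unadjusted p under 0.05 by limma. Their median log2 fold change for curdlan at 2 h was −0.07, against −0.04 for all genes, and at 4 h 0.03, against −0.12. At 4 h, 3 of the 13 were higher with curdlan, where 5.05% of all genes were. Ccr3, the eotaxin receptor of eosinophils, had group means of 6.00 and 7.23 with curdlan + FK506 at 2 h and 4 h, 5.54 and 7.51 with curdlan, and 5.06 in nontreated cells, so it was above the floor at curdlan 4 h and in both FK506 groups. Because its nontreated mean lay under the floor, its rise is given against the floor line, and it was at least 3.10-fold for curdlan at 4 h (adjusted p = 3.15e-08), while the FK506 difference at 4 h was −0.28 ± 0.16 (adjusted p = 0.403). Cxcr5 is the CXCL13 receptor that leads cells to the B cell follicle. Its mean was 5.61 with curdlan + FK506 at 4 h, 6.15 with curdlan at 4 h and 4.85 in nontreated cells. By the floor line its rise with curdlan at 4 h was at least 1.21-fold. The adjusted p of 6.25e-08 is that of the full difference of means by limma. Cxcr2, a neutrophil receptor, also passed at 4 h (adjusted p = 4.54e-06), but all its group means were near the floor, and no fold is given. None of 6 atypical and chemerin receptor genes was called in any of the 9 comparisons, where 1.12% to 9.2% of all genes were. Near the floor in all groups were 4 of the 6. Of the 6 genes, the number with an unadjusted p under 0.05 by limma was 1 for curdlan at 2 h and 3 for curdlan at 4 h. With FK506 it was 1 at 2 h and 0 at 4 h.

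In RefSeq order Ccr1, Ccr1l1, Ccr3 and Ccr2 follow each other on chromosome 9, and Ccrl2 and Cx3cr1 lie on the same chromosome, Ccrl2 beside Ltf and Cx3cr1 beside Ccr8. Within this run of related genes, curdlan at 4 h raised Ccr3 at least 3.10-fold, while Ccr1 was high and not called and Ccr2 stayed at the floor. Whether probes of these related genes bind each other's transcripts was not tested.

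**Figure D3:**
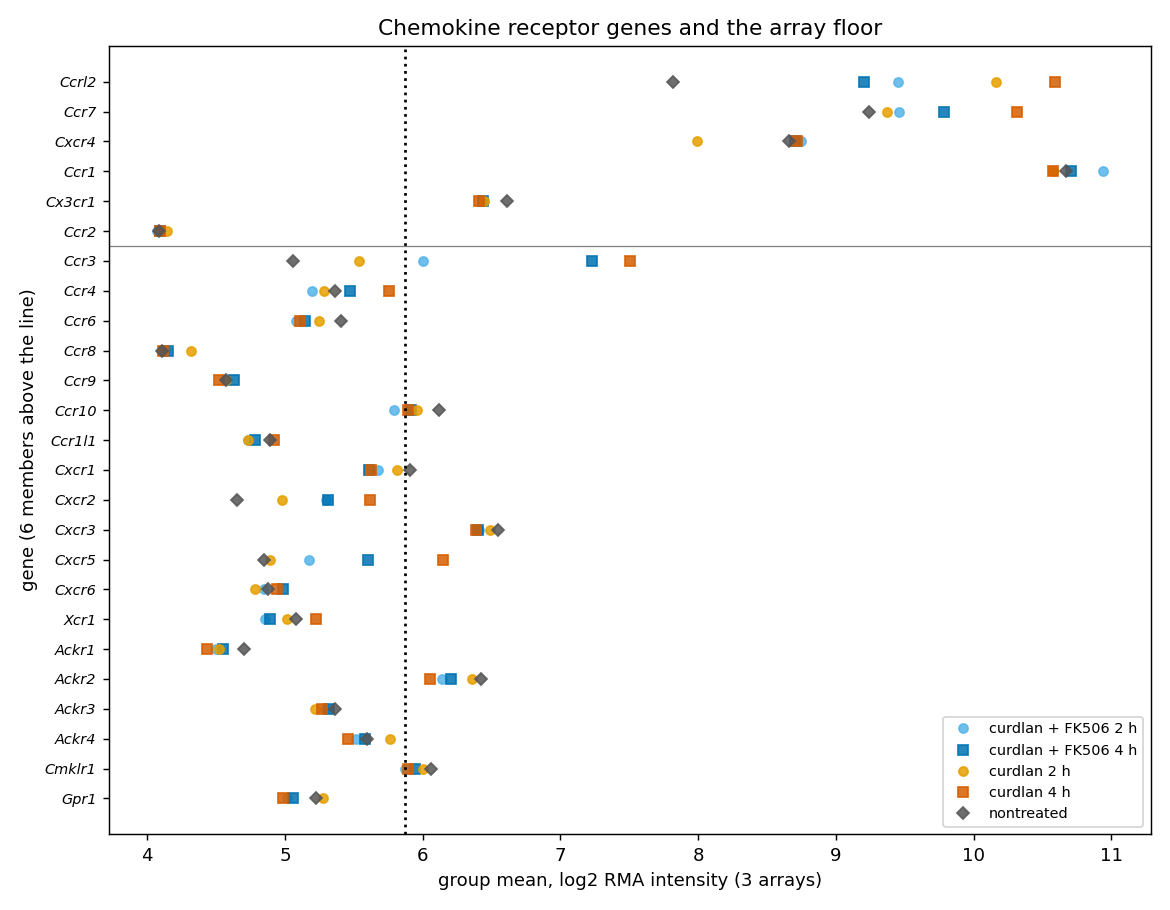
Group mean of log2 RMA intensity (3 arrays) on the horizontal axis for the 6 receptor genes above the grey line and for 13 other chemokine receptor genes and 6 atypical and chemerin receptor genes below it, with a marker per group and a dotted vertical line at the floor level of 5.87. Most of the other receptors lie left of the dotted line in every group. Of the 13 other chemokine receptor genes, 4 lie right of it in some groups only. Among them are Ccr3, at curdlan 4 h and in both curdlan + FK506 groups, and Cxcr5, at curdlan 4 h.

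The chemokines and the chemerin gene whose products bind the 6 receptors were read on the same arrays. Of 14 ligand genes, 12 were measured, 9 of them above the floor in all groups. Curdlan raised 6 of the 12 at 2 h and 6 at 4 h, with median log2 fold changes of 0.39 and 0.64 over the 12, against −0.04 and −0.12 for all genes, of which 2.2% and 5.05% were called higher. FK506 lowered 5 of the 12 at 2 h and 5 at 4 h, with medians of −0.20 and −0.27, against −0.03 and 0.03 for all genes, of which 0.762% and 1.53% were called lower.

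Among the ligands of CCR1, Ccl9 had levels of 7.71, 7.79 and 7.97 with curdlan + FK506 at 2 h and 8.83, 8.82 and 8.85 at 4 h. In curdlan cells it reached 9.26, 9.28 and 9.25 at 2 h and 10.64, 10.55 and 10.71 at 4 h, against 7.05, 7.24 and 7.08 in nontreated cells. At each time the curdlan arrays, the curdlan + FK506 arrays and the nontreated arrays did not overlap, and the log2 fold change with FK506 was −1.44 ± 0.07 at 2 h and −1.80 ± 0.07 at 4 h (adjusted p = 1.41e-08 and 1.25e-09). Ccl3 rose 2.49 ± 0.10 at both times with curdlan and was lower with FK506 at 2 h (−0.61 ± 0.10, adjusted p = 0.000957), a call that did not hold without curdlan 2 h replicate 2 (−0.55). Ccl5 was higher with curdlan at 4 h (0.72 ± 0.06) and lower there with FK506 (−0.65 ± 0.06). Ccl6 was high in all groups, with means of 11.81 to 12.02, and did not pass the test.

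The ligands of CCR2 ranged from far above the floor to near it, while the receptor was at the floor in all groups. Ccl2, the main CCR2 ligand, had means of 11.91 and 11.03 with curdlan + FK506 at 2 h and 4 h, 13.00 and 12.49 with curdlan, and 11.93 in nontreated cells. With FK506 it was lower at 2 h (−1.09 ± 0.05) and at 4 h (−1.46 ± 0.05), and at 4 h it was below nontreated cells as well (−0.89 ± 0.05). Ccl7 had means of 7.58 and 6.90 with curdlan + FK506, 11.32 and 9.76 with curdlan and 7.26 in nontreated cells, and its FK506 effect was smaller at 4 h than at 2 h (difference of 0.88 ± 0.08, adjusted p = 2.43e-05). Ccl12, a mouse CCR2 ligand, read 7.29, 7.25 and 7.32 with curdlan + FK506 at 2 h and 6.41, 6.54 and 6.34 at 4 h. Curdlan cells read 8.27, 8.28 and 7.87 at 2 h and 8.20, 8.35 and 8.26 at 4 h, against 6.42, 6.63 and 6.69 in nontreated cells. At 4 h with FK506 the Ccl12 arrays overlapped the nontreated range, and its FK506 effect was larger at 4 h than at 2 h (−0.99 ± 0.15, adjusted p = 0.00135). Ccl8 was near the floor in all groups.

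Cx3cl1, the ligand of CX3CR1, read 8.25, 8.20 and 8.28 with curdlan + FK506 at 2 h and 8.53, 8.35 and 8.50 at 4 h. In the curdlan groups it read 8.13, 8.13 and 8.12 at 2 h and 8.49, 8.56 and 8.53 at 4 h, against 7.52, 7.46 and 7.26 in nontreated cells. It was the only one of the 6 ligands raised at 2 h that FK506 did not lower (0.12 at 2 h and −0.07 at 4 h). Ccl19, a CCR7 ligand, was above the floor but spread widely, with a mean of 9.18 ± 0.61 at curdlan 2 h and 9.30 ± 0.45 in nontreated cells (SD, n = 3 each), and its log2 fold change for curdlan at 4 h was −0.67 ± 0.26 (adjusted p = 0.0563). Ccl21a and Ccl21b are not on a probe set with 1 symbol and are not analysed here. Cxcl12 and the chemerin gene Rarres2 were near the floor in all groups.

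**Figure D4:**
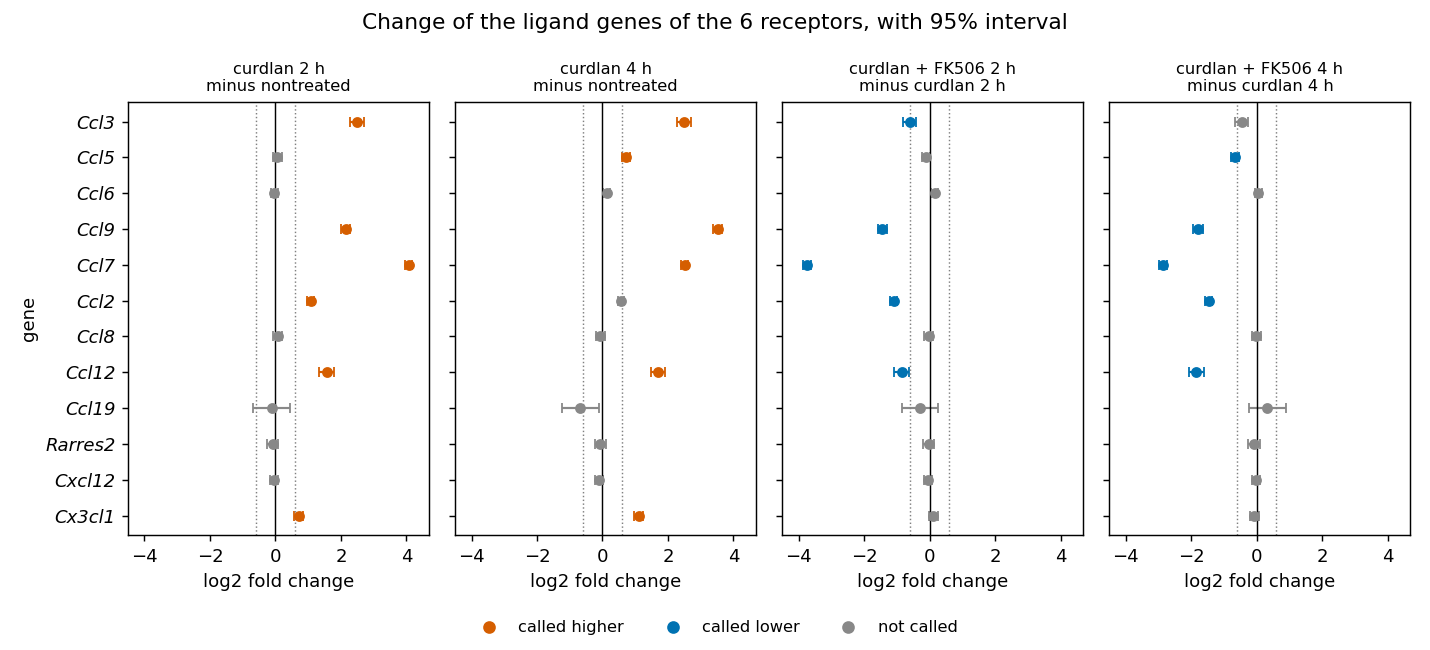
Log2 fold change of 12 ligand genes of the 6 receptors in 4 comparisons, with points for the limma estimate and whiskers for the 95% confidence interval (orange for called higher, blue for called lower, grey for not called), a solid line at 0 and dotted lines at 1.5-fold. In the left panels 6 genes lie right of the dotted line at each time, and in the FK506 panels 5 lie left of it, Ccl7 farthest.

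Genes that carry or stop the chemokine receptor signal also changed. Of 33 listed, 31 were measured. With curdlan, 2 of them rose and 2 fell at 2 h, and 3 rose and 5 fell at 4 h, where 3.6% and 9.2% of all genes were called. The medians of the list were −0.07 and −0.17, against −0.04 and −0.12 for all genes. Rgs1, which ends G protein signalling downstream of chemokine receptors, was near the floor in nontreated cells (5.06) and had means of 8.24 and 8.82 with curdlan + FK506 at 2 h and 4 h and of 8.62 and 9.70 with curdlan. Against the floor line it rose at least 6.71-fold at 2 h and 14.2-fold at 4 h with curdlan (adjusted p = 2.35e-12 and 9.97e-14), and with FK506 it was lower at 4 h (−0.88 ± 0.09, adjusted p = 9.72e-06). Among the kinases that phosphorylate active receptors, Grk5 rose 1.28 ± 0.12 at 2 h with curdlan and was lower with FK506 at 2 h (−1.27 ± 0.12) and at 4 h (−1.06 ± 0.12), with means of 7.36 and 7.06 in curdlan + FK506 cells against 7.36 in nontreated cells. Grk3 rose 1.49 ± 0.09 with curdlan at 4 h and had an FK506 difference of −0.06 ± 0.09 there (adjusted p = 0.803). Rgs14 was lower with curdlan (−0.67 ± 0.05 at 2 h, −1.05 ± 0.05 at 4 h), as was Pik3cg, the catalytic subunit of PI3-kinase γ, at 2 h (−0.68 ± 0.04). FK506 lowered 2 of the 31 at 2 h (Grk5 and Rgs16) and 2 at 4 h (Grk5 and Rgs1), where 0.762% and 1.53% of all genes were lower, with medians of 0.05 and 0.08, against −0.03 and 0.03 for all genes.

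Receptors for attractants other than chemokines were measured for 16 of 20 listed genes. With curdlan, 5 rose and 1 fell at 2 h, led by S1pr3 (1.84 ± 0.06, a sphingosine-1-phosphate receptor), Ptger4 (1.51 ± 0.11, a prostaglandin E2 receptor), Ptafr (1.02 ± 0.07, the platelet-activating factor receptor) and C5ar1 (0.92 ± 0.05, a complement C5a receptor), in a comparison where 3.6% of all genes were called. The one that fell at 2 h, S1pr4 (−0.59), lost its call without curdlan 2 h replicate 2 (−0.55) and without nontreated replicate 3 (−0.54). At 4 h 7 rose and 5 fell, against 9.2% of all genes called, with Ptafr (2.54 ± 0.07), S1pr3 (2.49 ± 0.06), Ptger4 (2.13 ± 0.11) and S1pr4 (−1.02 ± 0.08) changing most. Of these calls at 4 h, Cysltr2 (0.53) and S1pr2 (−0.49) were lost without nontreated replicate 1. The medians were 0.01 and 0.28, against −0.04 and −0.12 for all genes. FK506 changed 0 of the 16 at 2 h (9 had an unadjusted p under 0.05 by limma, and 1.12% of all genes were called) and lowered 5 at 4 h, where 1.53% of all genes were lower, namely Cysltr2 (−0.96 ± 0.12), C5ar2 (−0.83 ± 0.07), C5ar1 (−0.77 ± 0.05), Gpr183 (−0.62 ± 0.05) and Ptger2 (at least 1.36-fold, with the FK506 mean under the floor). The Ptger2 call was lost without curdlan + FK506 4 h replicate 1 (−0.58). The medians of the list with FK506 were −0.06 and −0.01, against −0.03 and 0.03 for all genes.

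Genes that mark DC maturation also moved with curdlan. Of 18 measured, 8 rose at 2 h, and 12 rose and 1 fell at 4 h, where 3.6% and 9.2% of all genes were called. The median log2 fold changes were 0.51 and 1.196, against −0.04 and −0.12 for all genes. The largest rises were those of Cd83 (3.92 ± 0.04 at 2 h, 4.16 ± 0.04 at 4 h) and of the costimulatory receptor Cd40 (2.04 ± 0.06 and 3.04 ± 0.06). At 2 h Marcksl1 (2.01 ± 0.25) and the CCR4 ligand Ccl22 (1.79 ± 0.07) followed, and at 4 h Marcksl1 (2.95 ± 0.25) and the CD27 ligand Cd70 (2.58 ± 0.08). FK506 changed 1 of the 18 at 2 h, where the PD-1 ligand Pdcd1lg2 was 2.01-fold higher (background 1.12%), and 1 at 4 h, where Cd70 was lower (−1.60 ± 0.08, background 1.75%). Of 10 conventional DC markers, the transcription factors Irf8 (1.59 ± 0.04 at 2 h, 2.40 ± 0.04 at 4 h) and Irf4 (0.87 ± 0.05 and 1.21 ± 0.05) were higher with curdlan, and the lectin Cd209a was lower at 4 h (−0.90 ± 0.07). These calls were 2 of the 10 at 2 h and 3 at 4 h, where 3.6% and 9.2% of all genes were called. With FK506, none of the 10 was called at either time (background 1.12% and 1.75%). An unadjusted p under 0.05 by limma was found there for 2 and 3 of the 10.

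Some markers of other cells moved as well. With curdlan, Cd14 of the macrophage list was higher at 2 h (0.71 ± 0.14), a call lost without nontreated replicate 1, and at 4 h (1.12 ± 0.14). Also at 4 h with curdlan, Klrk1 was higher (0.67 ± 0.20), which without nontreated replicate 1 was 0.42 and not called, and Cd300c of the plasmacytoid DC list was lower (−0.68 ± 0.08). The summed linear level of the 7 NK cell markers was 674 to 721 with curdlan + FK506, 460 to 591 with curdlan and 512 to 678 in nontreated cells at 2 h, and at 4 h it was 708 to 748 with curdlan + FK506 and 818 to 823 with curdlan. With FK506, of 8 macrophage and monocyte markers, Mertk was lower with FK506 at 2 h (−1.53 ± 0.09) and, with Cd14 (−0.90 ± 0.14), at 4 h (Mertk −2.20 ± 0.09). The summed linear level of the 8 was 11636 to 12059 with curdlan + FK506 and 11639 to 11852 with curdlan at 2 h, and 11072 to 11207 with curdlan + FK506 and 10519 to 10801 with curdlan at 4 h, and 1 of the 8 was near the floor in all groups. Of 7 T cell markers, 4 of them near the floor in all groups, Cd5 was lower with FK506 at 4 h (−0.64 ± 0.05), and the summed level was 658 to 712 with curdlan + FK506 against 898 to 913 with curdlan. Their part in the receptor results was not tested.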

How the data were processed

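The arrays (Affymetrix Mouse Gene ST, 1 colour) measured total RNA of D1 cells. The deposited values are log2 intensities, made by the authors with RMA (background correction, then quantile normalization, then a median polish over the probes) in the affy package of R 2.15.2. After RMA the array medians lay between 6.45 and 6.57, and a change common to all genes is largely removed. Of 34760 probe sets, 21640 carried 1 gene symbol and were used, and the probe set with the highest mean over 15 arrays stood for a gene, which left 19937 genes. No filter on low values was applied. The number of arrays limits the precision.

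The 5 groups were fitted together in one linear model (limma 3.58.1 under R 4.3.3) over the 15 arrays (10 residual degrees of freedom), with empirical Bayes moderation and two-sided tests. Benjamini-Hochberg adjustment ran over the 19937 genes within each of 9 comparisons. Values after ± are standard errors of log2 fold changes unless SD is stated. The 6 genes and the lists of other receptors, ligands, signalling genes, attractant receptors and markers were chosen with earlier results of these data known. The text names the 6 genes, every called gene of the receptor and ligand lists, up to 4 called genes with the largest change of each other list, and the 3 genes most like each changed receptor. Members with no call, and genes that complete a count of 5 or fewer, were named after their values were seen. The scripts were tested on simulated data, and 24 other settings were run. Promoter sequences are from RefSeq (GRCm38.p6). Same-numbered replicates were not treated as pairs.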

Additional observations from a re-analysis of the deposited data

Results flagged for a closer look

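The FK506 effect (curdlan + FK506 minus curdlan) differed between 4 h and 2 h, by limma's test of the difference itself, in 3 of the 6 receptor genes, against 1.23% of all genes. It also differed in 2 of 13 other chemokine receptors, 2 of 12 ligands, 1 of 16 attractant receptors, 3 of 18 maturation genes and 1 of 8 macrophage and monocyte markers. On the log2 scale the effect at 4 h minus that at 2 h was −0.67 for Ccrl2 (adjusted p = 0.00357), −0.62 for Ccr7 (adjusted p = 0.00129) and −0.77 for Cxcr4 (adjusted p = 3.83e-05). For Ccrl2 this is a larger loss with FK506 at 4 h, for Ccr7 a loss found at 4 h only as a difference under 1.5-fold, and for Cxcr4 a gain at 2 h with no call at 4 h.

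Among the other receptors it was −0.82 for Cxcr5 (adjusted p = 0.00205), of whose 4 group means in this contrast 3 were near the array floor, and −0.62 for Cxcr2 (adjusted p = 0.0289), whose group means were all near it, so neither size is well measured. Among the ligands it was 0.88 for Ccl7 (adjusted p = 2.43e-05) and −0.99 for Ccl12 (adjusted p = 0.00135). Ptafr, the platelet-activating factor receptor, had −0.69 (adjusted p = 0.000792). The maturation genes were Cd70 (−1.24, adjusted p = 2.44e-05), Cd274 (−0.74, adjusted p = 0.000241) and Pdcd1lg2 (−0.77, adjusted p = 0.0115), and the macrophage marker was Mertk (−0.68, adjusted p = 0.00888).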

How the results depend on the processing

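The calls and log2 fold changes of the 6 genes, and of each listed gene in the comparisons that called it, were recomputed under 24 settings, 15 of which left out 1 array. Ccr2 and Cxcr2 had 23, since the filter on low values removed them. No called value changed sign. With no fold threshold, the receptor genes called were 2 of 6 for curdlan + FK506 4 h against curdlan 4 h, 2 for curdlan + FK506 2 h and 2 for curdlan + FK506 4 h against nontreated cells, and 1 for curdlan + FK506 4 h against 2 h, in each case with Ccr7 added. Ccrl2 was added for curdlan 4 h against 2 h. Over all genes that setting called 4004 genes for curdlan over nontreated cells after 2 h and 7432 after 4 h, 1509 and 2327 for FK506 at 2 h and 4 h, 3515 and 5175 for curdlan + FK506 at 2 h and 4 h against nontreated cells, 5191 and 2788 between the times without and with FK506, and 872 for the difference of the FK506 effects. That difference was called for 2 to 3 of the 6 genes with 1 array left out, and the other 8 counts did not move. Ccr7 lost this call without curdlan 4 h replicate 1 (−0.56), with quantile normalization repeated (−0.55) and with array weights (−0.51), each under 1.5-fold with an adjusted p between 0.000256 and 0.00294.

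Cxcr2 lost the same call in 11 settings and its call for curdlan 4 h against 2 h in 3. Among the other listed genes, calls were lost in 1 to 4 settings each for Ccl3, Cd14, Cd274, Cd70, Cd86, Cysltr1, Cysltr2, Grk6, Klrk1, Marcksl1, Ptger2, Ptger4, S1pr2 and S1pr4. Whether same-numbered arrays share a culture is not given in the sources used here. Of 30 same-numbered pairs, 9 had correlated deviations (r over 0.1), and 6 of 15 arrays were most like one of their own number. With 3 arrays per group and 2 arrays that stood apart, these values cannot decide whether the numbers are pairs. With a replicate block, the 6 genes gave the same number of calls in all 9 comparisons (3 for the difference of the FK506 effects), all genes gave 222 calls for FK506 at 2 h and 347 at 4 h, and the Cxcr2 difference had an adjusted p of 0.0514. Ccr2 was near the floor by either reference level, 5.87 or 5.28.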
